A study of Schmidtea mediterranea with 96 samples.

Results

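The first hour after amputation was examined in the planarian flatworm *Schmidtea mediterranea* by setting polyA RNA libraries of fragments collected 1 hr after the cut against libraries of fragments collected at 0 hr. The rule took the 4 libraries labelled 1hr and the 4 labelled 0hr from the time-course table and compared every transcript in it, so 8 of the 96 libraries of the series, and 8 of the 68 of the time course, carry the comparison. Both groups were wild type and untreated apart from the cut. Each library was made from small regenerating fragments taken from one side of the worm, although the tissue label reads whole animals. The worms had been starved for at least 7 days, and the labels name an asexual strain (CIW4) and a sexual one (S2F8) without saying which was used here. How many fragments went into a library is not given, and neither is whether the libraries of a time are separate animals or cultures, so the p-values speak only of variation among the libraries sequenced, which may be technical. The 0hr fragments had been cut too, so the comparison of 1hr with 0hr is between cut fragments and holds no uncut tissue.

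Planarians rebuild missing body parts from dividing stem cells called neoblasts. In planarians, as in many animals, injury is known to switch on a first wave of transcripts within the first hour, before dividing cells accumulate at the wound. That wave is known to hold immediate early genes, many of which encode transcription factors and signalling proteins, and it is followed within hours by slower genes that include patterning factors. Much of it is known to start at any wound, whether or not tissue is missing.

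The deposited identifiers are transcripts, and the files do not pair them with gene names. Only the leading transcripts are therefore given by identifier, the others are given by their rank in size of change, and the labelled tissue was not checked against marker genes.

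Few transcripts were called in the first hour, and in the main fit nearly all of these were higher. Levels are given as FPKM, which scales reads to the length of the transcript and the size of the library, and log2 differences were taken on log2(FPKM + 1), which understates the change of transcripts near 0. A transcript was called when its adjusted p (limma, Benjamini-Hochberg over all transcripts tested) was under 0.05 and its log2 difference was at least 1 in size, which is a 2-fold difference. Of 24546 transcripts tested, 28 were called higher at 1hr (0.114%) and 2 lower (0.00815%). At the adjusted p alone, 133 were higher (0.542%) and 37 lower (0.151%). Both the counts and their balance between higher and lower depended on the fit. A pseudocount of 5 gave 11 higher and none lower, and one of 0.1 gave 42 higher and 17 lower. Limma voom on recovered reads gave 57 higher and 26 lower. More were called higher than lower in each of these fits, but the skew was weaker with voom and with the pseudocount of 0.1. The median log2 difference over all transcripts was 0.02, with the 5th and 95th percentiles at -0.29 and 0.30.

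**Figure D1:**
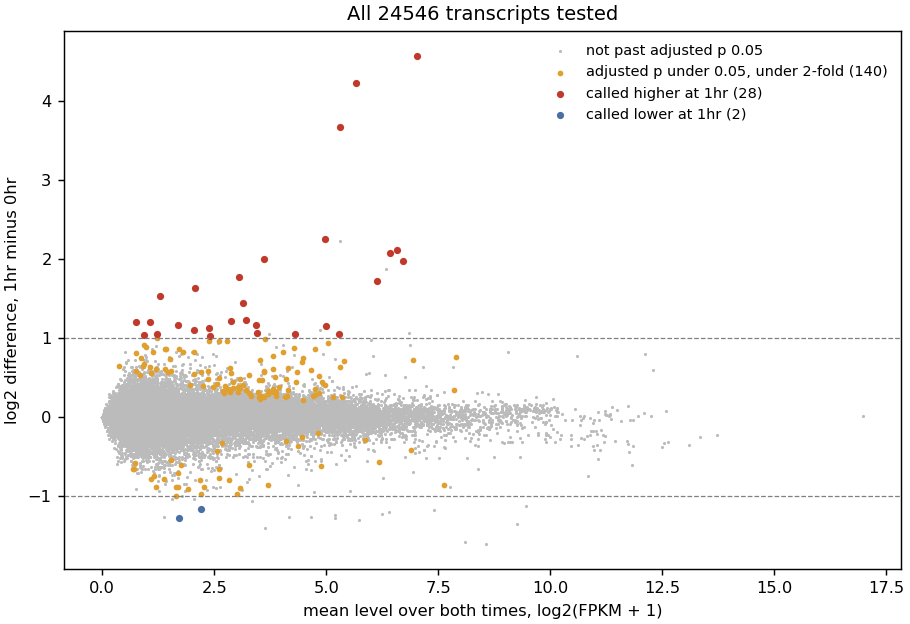
Log2 difference at 1hr minus 0hr (vertical) against the mean level over both times on the log2(FPKM + 1) scale (horizontal), 1 point per transcript tested, with dashed lines at a 2-fold difference. The 28 transcripts called higher reach a log2 difference of 4.58, the 2 called lower reach -1.28, and 140 more passed the adjusted p with a difference under 2-fold.

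SMED30029780 showed the largest difference among the transcripts called. It stood at 241, 289, 198 and 258 FPKM in the 1hr libraries (replicates 1, 3, 4 and 6) and at 16, 7.97, 9.01 and 6.15 FPKM in the 0hr libraries (replicates 1 to 4). All 4 values at 1hr lay far above all 4 values at 0hr. The mean was 247 ± 38.1 FPKM at 1hr and 9.79 ± 4.32 FPKM at 0hr (SD, n = 4 each), a ratio of 25.2 and a log2 difference of 4.58 ± 0.44 (SE, limma, adjusted p = 5.09e-11). The values rested on 13040 recovered reads at 1hr and 510 at 0hr, each summed over 4 libraries.

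SMED30022030 came next. Its level was 92.1, 109, 77.1 and 102 FPKM in the 1hr libraries and 6.77, 3.63, 3.99 and 2.56 FPKM in the 0hr libraries, again with no overlap. The log2 difference was 4.24 ± 0.45 (SE, limma, adjusted p = 9.67e-10), from 95.1 ± 13.9 FPKM at 1hr and 4.24 ± 1.80 FPKM at 0hr (SD, n = 4 each). The transcript of rank 3 followed with 62.3, 90.1, 59.7 and 76.1 FPKM at 1hr against 7.00, 3.49, 4.78 and 3.76 FPKM at 0hr, a log2 difference of 3.68 ± 0.52 (limma, adjusted p = 2.32e-06).

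These first 3 transcripts ranked the 1hr libraries in the same order. Replicate 3 was the highest at 1hr for each of them and replicate 4 the lowest, and replicate 1 was the highest at 0hr for each. SMED30029780 divided by SMED30022030 gave 2.53 to 2.64 in the 1hr libraries and 2.19 to 2.40 in the 0hr libraries. Over all 68 libraries of the time course the ratio had a median of 2.66 and ran from 2.04 to 6.57, and Pearson's r of the log2 values was 0.99, a description over libraries that share times. SMED30029780 over the rank 3 transcript was less even, with 3.20 to 3.88 at 1hr against 1.64 to 2.29 at 0hr and a range of 1.64 to 31.7 over the 68 libraries. The 3 transcripts are 718, 734 and 689 bases long, as recovered from the steps of their FPKM values. Whether any of them share sequence, which could let reads of one be counted on another, was not analysed here.

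Below a gap in size of change, ranks 4 to 8 were transcripts of moderate to high level. Rank 4 averaged 50.7 FPKM at 1hr and 10.0 at 0hr, rank 5 averaged 154 and 34.6 FPKM at 1hr and 0hr, and rank 6 averaged 137 and 31.6 FPKM, with log2 differences of 2.26, 2.12 and 2.08. Rank 6 had the smallest adjusted p of all those called (limma, 1.24e-22), since its libraries held 133, 143, 119 and 151 FPKM at 1hr and 30.1, 29.0, 37.9 and 29.4 FPKM at 0hr. Rank 8 had the highest level of the ranks 4 to 28, with 166 ± 27.8 FPKM at 1hr against 42.0 ± 9.86 FPKM at 0hr (SD, n = 4 each). Rank 7 varied more within its groups, with 14.2, 11.8, 15.9 and 29.4 FPKM at 1hr against 1.32, 1.44, 11.4 and 4.40 FPKM at 0hr. Its lowest 1hr library was only just above its highest 0hr library (limma, log2 difference 2.01 ± 0.39, adjusted p = 0.00144).

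Ranks 9 to 28 had log2 differences between 1.78 and 1.03. On the log2(FPKM + 1) scale 7 of the 28 reached a difference of 2 or above. As a ratio of mean FPKM, 13 were 4 times or more as high at 1hr, which includes 1 with no read at 0hr, and the median ratio over the 28 was 3.90. At 0hr, 6 of them averaged under 1 FPKM, 15 between 1 and 10 FPKM and 7 over 10 FPKM, so most were already at a measurable level in the fragment when it was cut.

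The transcript of rank 17 was the only one of the 28 with no read in any 0hr library. It had 0.694, 1.19, 1.25 and 2.36 FPKM at 1hr, from 33 reads in all. Set against a floor of 3 reads over the whole 0hr group, which equals 0.133 FPKM, it was at least 10.6-fold higher at 1hr. Its level was low in both groups, and the 1hr libraries held 4 to 15 reads each.

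The 1hr and 0hr libraries did not overlap for 27 of the 28 transcripts called higher and for both called lower. Over all transcripts tested, 3.14% had every 1hr library above every 0hr library and 1.5% had every one below. The transcripts called were chosen on these same libraries, so their lack of overlap follows in part from the choice. Rank 23 was the exception, since 1 of its 0hr libraries held 11 FPKM and its lowest 1hr library 10.8 FPKM. Among the 1hr libraries, replicate 6 was the highest for 13 of the 28 and replicate 3 for 11, with replicates 1 and 4 the highest for 2 each. The coefficient of variation over the 1hr libraries ran from 8.57% to 51.2% with a median of 18.4%.

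**Figure D2:**
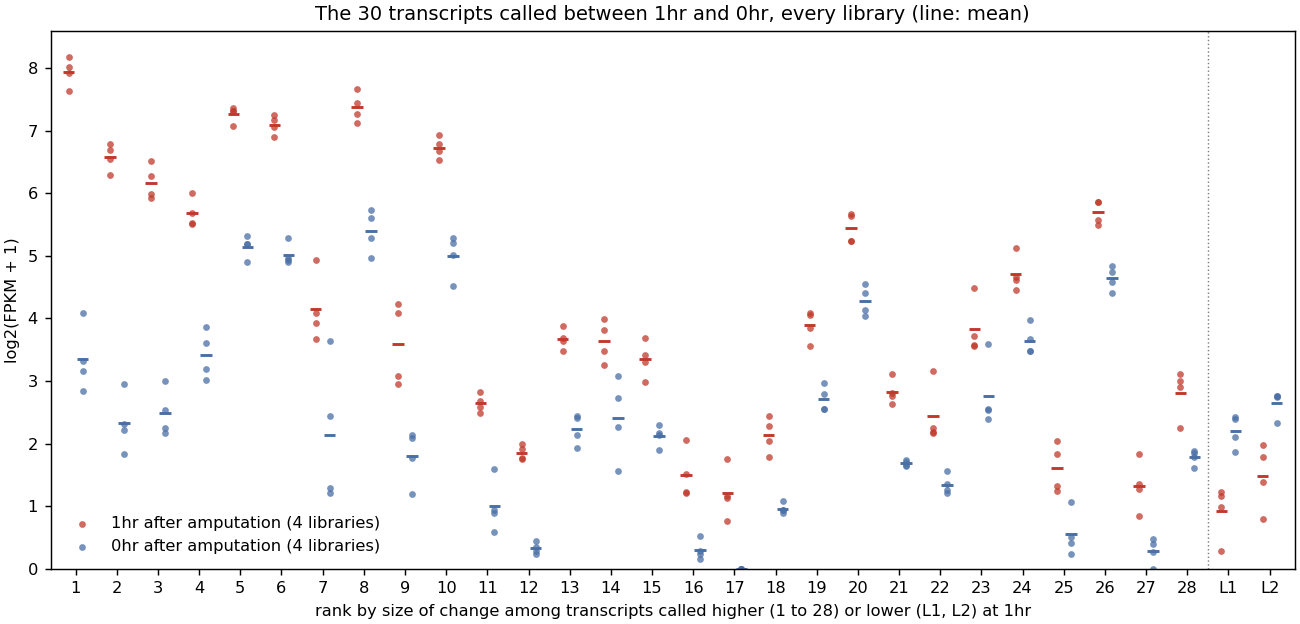
Level on the log2(FPKM + 1) scale (vertical) of the 28 transcripts called higher and the 2 called lower (L1, L2), ordered by rank (horizontal). Each point is a library, 1hr in red left of 0hr in blue, and lines are means. The first 3 transcripts stand apart in size, and the points of rank 23 overlap between times.

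Taken as a share of the library, the 28 transcripts took up 0.126%, 0.143%, 0.115% and 0.148% of reads at 1hr against 0.0341%, 0.0279%, 0.0357% and 0.0266% at 0hr. Their summed level was 1110 to 1390 FPKM at 1hr and 220 to 303 FPKM at 0hr. These sums follow from how the transcripts were chosen and are given only for their size. The 28 were 316 to 1854 bases long with a median of 713, against a median of 1015 over all transcripts tested.

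The transcripts called lower numbered 2, both at low levels. SMED30012228 had 0.213, 0.972, 1.25 and 1.35 FPKM in the 1hr libraries against 4.38, 3.28, 4.26 and 2.66 FPKM in the 0hr libraries. The mean was 0.947 ± 0.515 FPKM at 1hr and 3.64 ± 0.822 FPKM at 0hr (SD, n = 4 each), a log2 difference of -1.28 ± 0.24 (SE, limma, adjusted p = 0.000945). SMED30006449 had 2.43, 0.740, 2.93 and 1.62 FPKM at 1hr against 4.00, 5.76, 5.76 and 5.69 FPKM at 0hr, a log2 difference of -1.16 ± 0.25 (SE, limma, adjusted p = 0.00639). The groups did not overlap for either, and the 1hr values rested on 37 and 50 reads over the group. In bulk samples, less RNA per cell and fewer cells of a type cannot be told apart, and this holds for every fall or rise given here. Both calls depended on the fit: with only the 8 libraries of the 2 times the adjusted p was 0.0532 for SMED30012228 and 0.114 for SMED30006449 (limma). SMED30006449 was not called without 1hr replicate 3 (log2 difference -0.93, adjusted p = 0.102). The number called lower was 6, 7 and 5 without 1hr replicate 3, 4 or 6, and 7 without 0hr replicate 3.

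Beyond those called, 105 transcripts were higher and 35 lower at an adjusted p under 0.05 with a difference under 2-fold. The small rises had a median log2 difference of 0.51 and the small falls one of -0.71. The libraries did not overlap for 98 of the 105 and for 31 of the 35, against 3.14% and 1.5% of all transcripts, but these were picked by their adjusted p on the same libraries. The reverse case, a difference of 2-fold or more that missed the adjusted p, was seen for 5 transcripts with higher and 18 with lower means at 1hr. Their standard errors were larger, with a median of 1.19 for the 5 and 0.78 for the 18, against 0.19 for the 28 called higher. Of the 18, 6 averaged over 100 FPKM at 0hr.

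The libraries of the 2 times were close in depth and breadth. They held 15.9 to 20.2 M reads at 1hr and 15.4 to 19.9 M at 0hr, as recovered from the steps of the FPKM values (two-sided exact permutation test, p = 0.657). Transcripts at 1 FPKM or more numbered 18913 ± 915 at 1hr and 18832 ± 466 at 0hr (SD, n = 4 each, exact permutation p = 0.943), where 0.0286 is the smallest p that 4 against 4 libraries allow.

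Lists of transcripts that mark cell populations elsewhere in the series showed where stem cell and differentiated cell transcripts stood in the first hour. X1 cells are a live sort rich in dividing neoblasts, and Xins cells are a sort of cells that survive irradiation, mostly differentiated. Of the 655 transcripts measured here from the list called higher in X1 than in X2 and Xins cells, 1 was called higher at 1hr and none lower, with a median log2 difference of 0.08. Over all transcripts the shares called were 0.114% higher and 0.00815% lower and the median was 0.02, so with lists of this size a count of 0 or 1 is near the share of the whole table. Of 2664 from the Xins list, 1 was called higher and none lower, with a median of 0.04. Among 341 transcripts lower in irradiated than in untreated worms, 1 was called higher, with a median of 0.11, and none of 32 that were higher after irradiation was called, with a median of 0.14. The 1 called from the X1 list and the 1 from the list lower after irradiation were the same transcript, rank 21. The summed level of the X1 list was 8570 to 9630 FPKM in the 1hr libraries and 7930 to 8880 FPKM in the 0hr libraries, so the ranges overlapped.

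The 28 transcripts followed different courses after the first hour. Their means over the 17 times, from 0hr to 14 days, were highest at 1hr for 14 of them, at 3hr for 9, at 6hr and 9hr for 2 each and at 72hr for 1. The choice at 1hr favours a high mean there, so these counts are a description. SMED30029780 averaged 9.79 FPKM at 0hr, 247 at 1hr, 213 at 3hr, 103 at 6hr, 61.1 at 9hr, 28.7 at 12hr and 22.1 at 24hr, and 3.29 FPKM at 14 days. It lost most of its level between 3hr and 12hr, and its mean at 14 days lay below that at 0hr. In between the course was uneven and the libraries scattered widely. SMED30029780 held 22.1 ± 20.8 FPKM at 24hr and 35.5 ± 28.8 FPKM at 48hr (SD, n = 4 each). Its mean was 11.4 FPKM at 72hr and 24.5 FPKM at 4 days. SMED30022030 ran alongside, with 95.1 FPKM at 1hr, 85.1 at 3hr, 41.0 at 6hr, 10.7 at 12hr and 0.929 at 14 days. Its libraries scattered likewise, with 9.55 ± 10.6 FPKM at 24hr and 13 ± 11.2 FPKM at 48hr (SD, n = 4 each).

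Other members were only beginning to rise at 1hr. Rank 23 averaged 6.25 FPKM at 0hr, 13.8 at 1hr, 49.9 at 3hr, 64.7 at 6hr, 67.3 at 9hr, 64.0 at 12hr and 37.0 at 24hr. Its level at 9hr was 4.87 times that at 1hr, the widest such gap among the 28. Rank 8 was highest at 3hr with 324 FPKM, against 166 FPKM at 1hr, and then averaged 66.8 FPKM at 24hr, 42.6 at 48hr, 15.6 at 72hr and 8.09 at 14 days, the last below its 42.0 FPKM at 0hr. For a few the mean was back near its 0hr level within hours. Rank 16 averaged 0.237 FPKM at 0hr, 1.92 at 1hr, 1.12 at 3hr and 0.325 at 6hr, and rank 25 averaged 0.508 FPKM at 0hr, 2.14 at 1hr, 0.519 at 3hr, 0.416 at 6hr and 0.920 at 12hr. Rank 18 averaged 0.950 FPKM at 0hr, 3.46 at 1hr, 1.01 at 3hr and 0.545 at 6hr, and then stood higher again, with 2.07 FPKM at 12hr and 1.77 at 24hr. Its difference between 12hr and 6hr was 0.95 ± 0.22 on the log2 scale (SE, limma, adjusted p = 0.000486), just under the size of 1 that a call needs. Between 3hr and 1hr, which share the 1hr libraries with the choice, 8 of the 28 were higher and 6 lower at an adjusted p under 0.05 (limma), and the other 14 passed in neither direction. At the 2-fold threshold 3 were called higher at 3hr and 2 lower, where 0.151% and 0.428% of all transcripts were called.

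The median log2 difference of the 28 from 0hr was 1.22 at 1hr, 1.80 at 3hr, 1.31 at 6hr, 1.21 at 9hr, 0.91 at 12hr, 0.44 at 24hr and -0.15 at 14 days. All of these share the 4 libraries at 0hr. Of the 2 transcripts called lower, SMED30012228 averaged 3.64 FPKM at 0hr, 0.947 at 1hr, 0.688 at 3hr, 1.35 at 6hr, 3.35 at 9hr, 4.14 at 24hr, 2.03 at 36hr, 1.19 at 7 days and 1.41 FPKM at 14 days. SMED30006449 averaged 5.30 FPKM at 0hr, 1.93 at 1hr, 1.94 at 3hr, 2.23 at 6hr, 1.71 at 9hr, 2.98 at 24hr, 1.90 at 36hr, 1.64 at 7 days and 3.13 FPKM at 14 days. Both means at 14 days lay below those at 0hr.

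**Figure D3:**
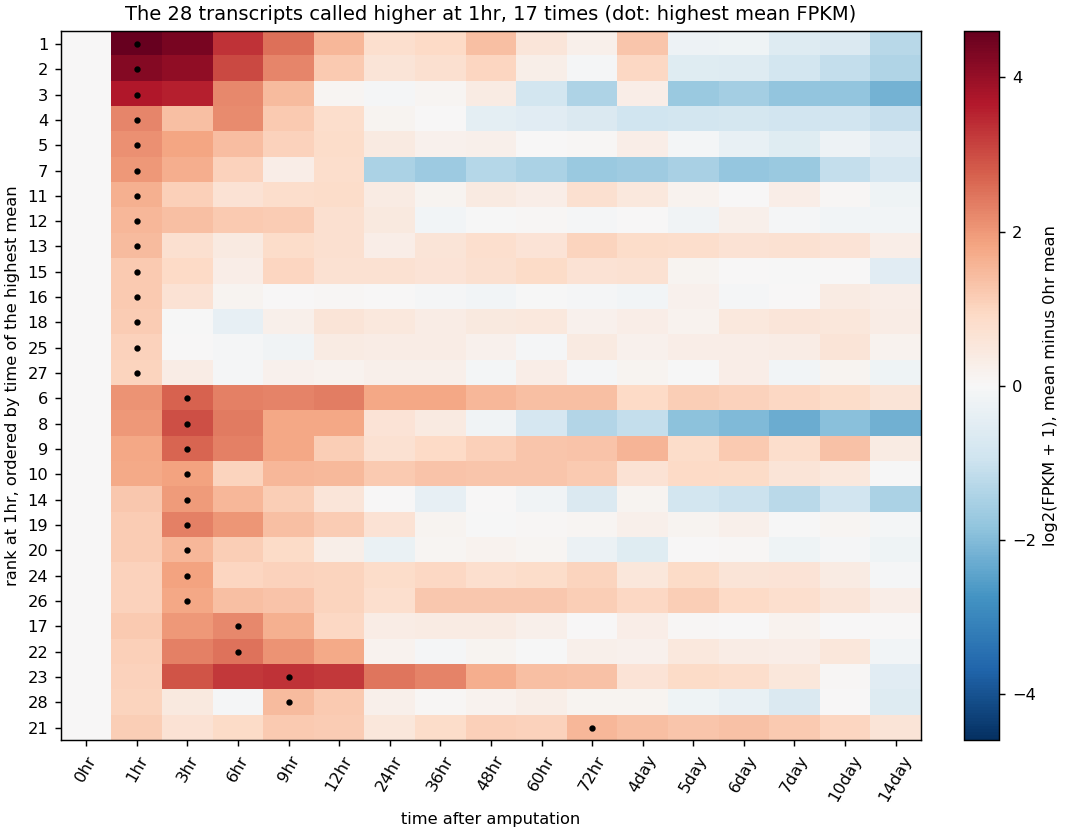
Mean log2(FPKM + 1) minus the 0hr mean (colour) of the 28 transcripts called higher at 1hr (rows, by rank and grouped by the time of the highest mean FPKM, black dot) at 17 times after amputation (columns). The 14 rows at the top are highest at 1hr, and 13 of the 14 below them are highest between 3hr and 9hr.

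Times that had no part in the choice were compared in the same fit. Between 3hr and 14 days, 22 of the 28 were called higher at 3hr and none lower, where 1.78% of all transcripts were called higher and 9.78% lower. The 28 had a median log2 difference of 1.94, and all transcripts one of -0.33. Scaling each library by median ratios shifted the median of all transcripts to -0.07 and gave the same 22 and 0 calls. SMED30029780 averaged 213 ± 23.0 FPKM at 3hr and 3.29 ± 0.839 FPKM at 14 days (SD, n = 4 each), a log2 difference of 5.66 ± 0.44 (SE, limma, adjusted p = 1.26e-16). The values of both groups come from libraries other than those at 1hr and 0hr, but the errors and calls do not, since all 68 libraries share 1 estimate of the spread.

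The decline was spread over several steps. Between 6hr and 3hr none of the 28 was called in either direction by limma on log2(FPKM + 1), where 0.0448% of all transcripts were called higher and 0.0733% lower. At an unadjusted p under 0.05, 2 were higher and 14 lower, against 3.19% and 14.7% of all transcripts. Limma voom on recovered reads called none higher and 3 lower, against 0.102% and 0.676% of all transcripts. The median log2 difference of the 28 was -0.39, against -0.09 over all transcripts. Between 12hr and 6hr, 1 was called higher and 6 lower, against 6.14% and 0.126% of all transcripts, and the medians were -0.29 for the 28 and 0.19 for all transcripts. With median-ratio scaling the median of all transcripts was -0.02, and 1 of the 28 was called higher and 10 lower. SMED30029780 fell by 1.79 on the log2 scale in that step (SE 0.44, limma, adjusted p = 0.000798), to 28.7 FPKM at 12hr, against 103 FPKM at 6hr. Between 24hr and 12hr, 3 of the 28 were called lower and none higher, against 0.489% and 0.0978% of all transcripts. There 27 of the 28 differences were below 0, with a median of -0.49, against -0.04 over all transcripts.

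The other experiments of the series give levels of the 28 in cells sorted from worms whose labels name no amputation. Between X1 and Xins cells, sorted live with a DNA dye (3 libraries each), 20 of the 28 passed the filter on low levels, of which 2 were called higher in X1 and 9 lower. Over all transcripts 8.41% were called higher and 39.9% lower, and the medians were -0.71 for the 20 and -0.68 for all, so the median of the members was close to that of the whole table. The split depended on the scaling: with median-ratio scaling 3 were called higher and 3 lower, against 21.5% and 24.9% of all transcripts. Without that scaling, ranks 7, 12, 14 and 15 were among those called lower in X1, and none exceeded 0.503 FPKM in any X1 library. They passed the filter only through the other sorts, rank 15 through Xins alone, so the filter favoured this direction for them. X2, a live sort of smaller neoblasts and recent progeny, had 1 of the 20 called higher and 1 lower than in Xins (1.69% and 18.2% of all transcripts), and the 1 called higher was not called without X2 replicate 1 or without Xins replicate 1, while median-ratio scaling gave 3 higher and 1 lower. In cells fixed and sorted by PIWI-1, a neoblast protein that lingers in their progeny (4 libraries each), 17 of the 28 passed the filter. Between PIWI-1 high and negative cells 4 were called higher and 7 lower (19.7% and 27.6% of all transcripts), and between PIWI-1 low and negative cells 4 higher and 2 lower (13.8% and 18.9%). Rank 9 was called lower in both comparisons. It reached at most 0.56 FPKM in PIWI-1 low libraries and 0.0412 FPKM in high ones, against at least 2.52 FPKM in negative ones. It thus passed the filter only through the negative libraries, which fixed its direction in advance.

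Worms irradiated with 10000 rads, a dose known to remove neoblasts, were collected after 24 hours. Of 21 that passed the filter in whole worms, none was called higher and 1 lower in irradiated than in untreated worms (3 libraries each), against 0.168% and 1.74% of all transcripts. The 1 was rank 21, with 0.409 ± 0.0292 FPKM in irradiated and 3.25 ± 0.0252 FPKM in untreated worms (SD, n = 3 each), a log2 difference of -1.59 (limma, adjusted p = 1.13e-05). No irradiated library exceeded 0.443 FPKM, so rank 21 passed the filter only through the untreated worms, which fixed its direction in advance. Rank 21 also averaged 43.1 FPKM in X1, 19.1 in X2 and 8.82 in Xins cells, and 28.3 FPKM in PIWI-1 high, 11.2 in low and 2.06 in negative cells. Its own first-hour values were 5.75, 7.61, 5.98 and 5.17 FPKM at 1hr against 2.26, 2.13, 2.33 and 2.17 FPKM at 0hr, with no overlap, and it was the only member whose mean was highest at 72hr. SMED30029780 had 3.26 ± 1.93 FPKM in irradiated and 4.00 ± 0.884 FPKM in untreated worms (SD, n = 3 each), a log2 difference of -0.31 ± 0.29 (limma, adjusted p = 0.474).

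The leading first-hour transcripts were far higher in live-sorted cells than in untreated whole worms, a comparison added after the data were seen. SMED30029780 had 366, 316 and 302 FPKM in X1, 336, 367 and 382 FPKM in X2 and 535, 418 and 399 FPKM in Xins cells, against 4.61, 2.99 and 4.42 FPKM in untreated worms. Every sorted library lay above the 4 fragment libraries at 1hr, whose highest held 289 FPKM, although the tables were normalized separately and were not tested against each other. The log2 differences from untreated worms were 6.05, 6.19 and 6.50 for X1, X2 and Xins (limma, SE 0.23 each, adjusted p at most 4.37e-12). SMED30022030 showed the same pattern, with 102 to 142 FPKM in X1, 123 to 142 in X2 and 150 to 212 in Xins cells, against 1.12 to 1.78 FPKM in untreated worms.

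The pattern held for more of the members. Of 23 that passed the filter in this fit, 12 were called higher in X1, 13 in X2 and 17 in Xins cells than in untreated worms, where 13.9%, 12.5% and 11.3% of all transcripts were called higher. Those called lower numbered 4, 3 and 2, against 58.9%, 52.9% and 35.8% of all transcripts. Ranks 9, 18 and 28 were among them, and none exceeded 0.907 FPKM in any X1, X2 or Xins library. They passed the filter only through whole worms, which fixed their direction in advance. Rank 12, among the 17 called higher in Xins cells, passed the filter only through X2 and Xins libraries. It averaged 7.85 FPKM in Xins cells and 0.176 FPKM in untreated worms, so the filter favoured its direction. The median log2 differences of the 23 were 1.21, 1.80 and 1.74 for X1, X2 and Xins, where those of all transcripts were -1.28, -1.08 and -0.63. With median-ratio scaling 15, 18 and 18 were called higher, against 28.1%, 25.8% and 21.7% of all transcripts, and 2, 1 and 0 lower, against 33.4%, 27.5% and 17.7%. The summed level of the 28 was 895 to 1300 FPKM in X1, 1310 to 1440 in X2 and 1430 to 1800 FPKM in Xins cells, against 183 to 198 FPKM in untreated worms and 168 to 186 FPKM in irradiated ones. The 2 transcripts called lower at 1hr were called lower in all 3 sorts than in untreated worms, as were 58.9%, 52.9% and 35.8% of all transcripts. Neither exceeded 0.538 FPKM in any X1, X2 or Xins library, and both were listed at 0 FPKM in all 3 X1 libraries. They passed the filter only through whole worms, which fixed this direction in advance. The sorts differ from whole worms in dissociation, dye, sorting, RNA extraction and the amount of RNA used, which cannot be told apart here. Among fixed cells SMED30029780 averaged 34.6 ± 30.1 FPKM where PIWI-1 was high, 63.1 ± 45.6 FPKM where it was low and 116 ± 102 FPKM where it was absent (SD, n = 4 each). The difference between PIWI-1 high and negative cells was -1.74 ± 0.69 on the log2 scale (SE, limma, adjusted p = 0.0474). With the replicate block, which pairs libraries by their number, it was -1.74 ± 0.25 (adjusted p = 4.53e-05). The summed level of the 28 in fixed cells was 152 to 244 FPKM in PIWI-1 high, 213 to 322 FPKM in low and 220 to 703 FPKM in negative cells, so it was lower than in the live sorts, and the range for PIWI-1 high cells spans that of untreated worms. The 703 FPKM came from PIWI-1 negative replicate 4 alone, and the next negative library held 425 FPKM. The most abundant transcript took 16.58% to 61.16% of reads in fixed-cell libraries, with the highest share in that same library. The share was 26.75% to 41.48% in the live sorts and 11.51% to 12.79% in untreated worms. FPKM of all other transcripts depends on this share. The PIWI-1 table was normalized separately, and these levels were not tested against the others.

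**Figure D4:**
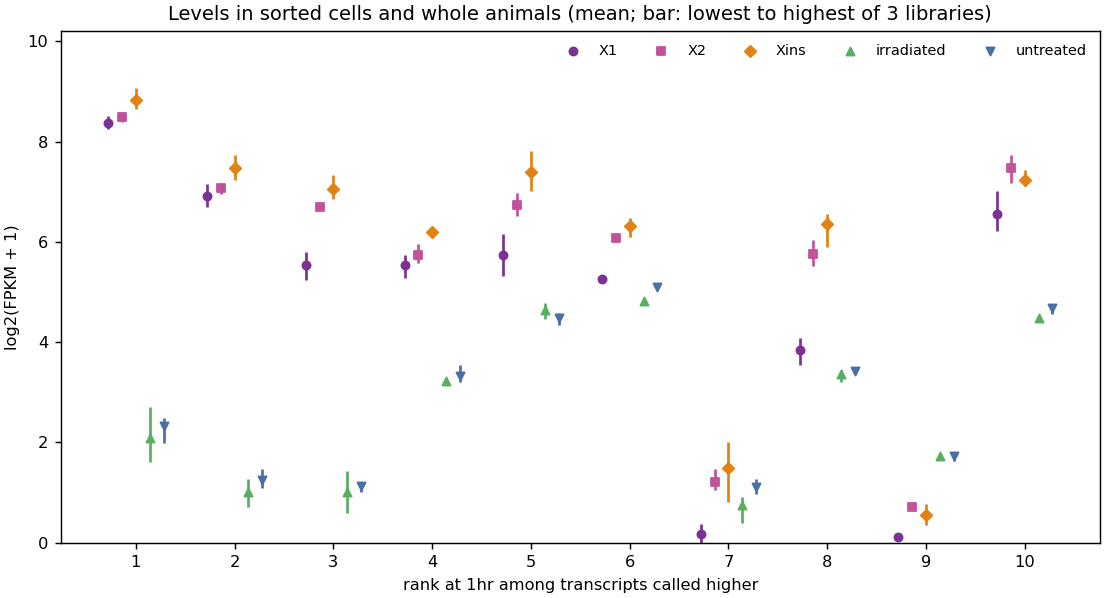
Level on the log2(FPKM + 1) scale (vertical) of the first 10 transcripts called higher at 1hr (horizontal, by rank) in X1, X2 and Xins cells and in irradiated and untreated whole worms. Symbols are means of 3 libraries and bars run from the lowest to the highest. For ranks 1 to 6, 8 and 10 all 3 sorts lie above untreated worms, and for rank 9 they lie below.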

How the data were processed

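PolyA RNA libraries were sequenced, and the authors deposited 3 tables with 1 row per transcript and 1 column per library, whose values are FPKM per the labels. The submitters' processing notes name Bowtie2 2.2.9 and edgeR without a role. The transcript reference and the counting method are not given in the sources used here. Whole reads were recovered from the steps of the deposited FPKM (100.0% of the time-course values with a length were whole within 0.05 of a read) and served for depth, floors and an alternative fit with limma voom.

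Differences were tested with limma 3.58.1 in R 4.3.3 on log2(FPKM + 1) computed from the values the authors deposited, after a filter of at least 1 FPKM in 4 libraries (time course, PIWI-1 sorts) or 3 (X sorts, whole worms). The moderated test was two-sided, with a trended prior variance. All 68 time-course libraries shared 1 fit, and the comparison of X sorts with untreated worms used 1 fit of 15 libraries. The scripts were tested on simulated data. Identifiers are printed for the first 2 transcripts by size of change among those called in each direction, provided the higher group averaged 5 FPKM or more and the libraries did not overlap, or, where too few called lower met this, the first called lower whatever its level. Ranks run by size of the log2 difference. The members and lists were chosen with earlier results of these data known.

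The replicates differed beyond sampling noise (chi-square over degrees of freedom 21.0 to 77.9 between 1hr libraries, 10.4 to 32.3 between 0hr libraries). Same-numbered PIWI-1 libraries deviated together (12 of 12 pairs above a correlation of 0.1, lowest 0.122), a pairing seen in the data that the labels do not state. One column that matched no group was not used. Alternatives were other pseudocounts (0.1 and 5), other filters, median-ratio scaling, only the groups compared, limma voom, replicate blocks and leaving out each library.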

Additional observations from a re-analysis of the deposited data

Results flagged for a closer look

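Chance flags about 1 in 20 groups of 4 libraries, and 6 of the 76 groups checked held a library far from the other 3. Rank 6 had 37.9 FPKM in its highest 0hr library, where the next was 30.1 FPKM. Rank 22 had 7.97 FPKM in its highest 1hr library, against 3.77 FPKM in the next, so its mean at 1hr rests in part on 1 library, replicate 6, and its log2 difference without it was 0.86 (limma, adjusted p = 0.00469). Rank 23 had 21.5 FPKM in its highest 1hr library, where the next held 12.2 FPKM, and 11 FPKM in its highest 0hr library, where the next held 4.87 FPKM. SMED30006449, the second of those called lower, had 4.00 FPKM in its lowest 0hr library, against 5.69 FPKM in the next. The number of transcripts at 1 FPKM or more was 18135 in the lowest 0hr library and 19035 in the next.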

How the results depend on the processing

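Of the 28 transcripts called higher, 20 kept their call whichever of the 8 libraries was left out, and the counts ran from 23 to 33 higher and from 2 to 7 lower. Limma voom made all 28 calls among 57 higher, and called 26 lower. A pseudocount of 0.1 kept 24 of the 28 among 42 higher, with 17 lower, and one of 5 left 11 higher and 0 lower, where SMED30012228 and SMED30006449 had log2 differences of -0.54 and -0.58. A filter at 5 FPKM and a fit of only the 2 groups each left 0 called lower, with 22 and 19 higher. At an unadjusted p under 0.05 and the same 2-fold threshold, 4 and 13 were lower. The fit of 2 groups kept 19 of the 26 it could test. Median-ratio scaling gave 5 lower. SMED30006449 was not called without 1hr replicate 3 (-0.93, adjusted p = 0.102).

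Whether replicate numbers pair the 1hr and 0hr libraries could not be told. The 3 shared numbers gave correlations of -0.08, 0.044 and 0.342, and pairs of unlike numbers ran from -0.227 to 0.218. A replicate block over 68 libraries gave 28 higher and 5 lower, and one over replicates 1, 3 and 4 of both times gave 10 higher, all among the 24 of the 28 it could test, and 7 lower. The PIWI-1 block changed no count by over 1.5 times.

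Counts of the 28 in other comparisons moved in few settings. The number called lower was 10 for 12hr against 6hr and 3 for X1 against Xins under median-ratio scaling, 5 for 24hr against 12hr with a pseudocount of 0.1 and with voom, 5 for X1 against Xins with a pseudocount of 5, and 0 for irradiated against untreated worms with a pseudocount of 5 and with a filter at 5 FPKM. The number called higher for X2 against Xins was 0 with a pseudocount of 5, 3 under median-ratio scaling and 0 to 1 with a library left out. List members called at 1hr ranged from 0 to 3 (X1), 0 to 2 (Xins) and 0 to 2 (irradiation-lowered). The cause of these shifts was not tested.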
